A study of Mus musculus with 22 samples.

Results

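Dux is a double-homeobox transcription factor that is switched on in the mouse embryo at the 2-cell stage, when the embryonic genome is first transcribed. In cultured embryonic stem cells, a rare and transient population of two-cell-like cells expresses Dux together with genes of that stage, among them the Zscan4 cluster, the Tcstv and Usp17l genes, and the endogenous retrovirus MERVL with its long terminal repeat MT2_Mm. Dux binds and activates many of these genes and repeats, and repressors such as Trim28 hold it silent in most cells. The comparison described here is that of Dux-KO with Dux-Het cells under DMSO, the vehicle control of the study, and asks what loss of Dux changes before the conditional Ythdc1 allele is acted on.

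The comparison held 4 of the 22 libraries of the series, chosen by their titles and by the column names of the raw count table: Dux-KO replicates 1 and 2 and Dux-Het replicates 1 and 2. All 4 were total RNA libraries of male mouse embryonic stem cells of 129 background, grown without feeders in serum and LIF, that carried the Ythdc1-cKO allele (a conditional knockout of the nuclear m6A reader Ythdc1) and had received DMSO. Dux-Het cells keep 1 Dux allele and stand as the control. The matching 4OHT libraries (4-hydroxytamoxifen, the agent paired with the conditional allele) comprised 2 of each genotype, and 2 further Ythdc1-cKO libraries, 1 per treatment, had titles with no Dux label. The genotype and treatment fields of these libraries did not match their titles, so that all 4 libraries titled DMSO carried 4OHT in the treatment field, and groups were taken from the titles and column names throughout. The labels name no clones or separate cultures, so p-values measure the spread between these samples, which may be technical, and 2 against 2 values cannot give an exact two-sided permutation p below 0.333.

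The Dux-Het libraries held 43443030 and 44766745 counts and the Dux-KO libraries 31641587 and 47357177. Levels are in CPM, the count of a feature relative to the total of its library after TMM scaling. All 10 embryonic stem cell markers, among them Pou5f1, Sox2 and Nanog, stood at 39.7 CPM or more in each of the 4 libraries. Counts of 1 to 20 were even in 64.7% to 69.5% of cases, so that most reads entered the table as pairs, and a level of 0 was given an upper limit of 3 read pairs, or 6 counts, summed over a genotype's libraries. Such limits cover counting error only.

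The Zscan4 genes were the largest block of the response, and the RefSeq promoters of 4 of them are shown because they are the 4 called genes with a promoter in the reference table and are nearly identical to one another. Each window runs 5′ to 3′ on the gene's strand, lies upstream of the RefSeq start in GRCm38.p6, and has in capitals the 11 bases that match a relaxed Dux-like motif, TGATTNNATCA, read on the opposite strand (TGATNNAATCA).
Zscan4b: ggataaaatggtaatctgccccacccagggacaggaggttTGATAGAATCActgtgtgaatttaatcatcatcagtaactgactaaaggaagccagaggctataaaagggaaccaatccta
Zscan4c: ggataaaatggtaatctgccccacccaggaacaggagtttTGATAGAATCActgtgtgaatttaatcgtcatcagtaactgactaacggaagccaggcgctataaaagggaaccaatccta
Zscan4d: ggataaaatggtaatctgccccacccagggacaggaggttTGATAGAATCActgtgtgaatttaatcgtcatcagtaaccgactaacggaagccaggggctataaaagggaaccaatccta
Zscan4f: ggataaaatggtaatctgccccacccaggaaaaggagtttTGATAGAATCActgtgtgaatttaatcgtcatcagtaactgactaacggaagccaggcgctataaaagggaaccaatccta
The windows lie at chr7:10905061-10905181 (Zscan4b, minus strand), chr7:11005591-11005711 (Zscan4c, plus), chr7:11166193-11166313 (Zscan4d, minus) and chr7:11397784-11397904 (Zscan4f, plus). The 4 windows were 94.2% to 99.2% identical over 121 aligned bases, and Zscan4c and Zscan4f differed at 1 position. The relaxed motif was searched on both strands after the stricter TGATTNAATCA, which it includes, had matched none of the 23 two-cell-like genes with a promoter in the table. The stricter motif occurred in 11 of 32851 promoters (0.0335%) and the relaxed one in 68 (0.207%), among them these 4 and no other two-cell-like gene. A match describes the letters of the window and does not show binding, which was not tested.

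Dux-KO cells had no detectable Zscan4 RNA under DMSO. Of 29322 genes and repeat families tested, 10 were called lower in Dux-KO (0.0341%) and 0 higher (0%) at an edgeR quasi-likelihood adjusted p under 0.05, and 8 of the 10 were Zscan4 genes. The other two were Gm2016 and Gm5662, from a cluster of eIF1A-like genes on chromosome 12. At an unadjusted p under 0.05, 452 features were lower (1.54%) and 304 higher (1.04%). DESeq2 called 17 features, all lower, which included these 10.

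Zscan4 genes encode SCAN-domain zinc finger proteins linked to telomere lengthening in embryonic stem cells and are the usual marker of the two-cell-like state. The 9 Zscan4 genes and pseudogenes of the table (chromosome 7, 10794242 to 11614112, mm10) summed to 491 and 750 counts in Dux-Het, or 11.75 and 17.38 CPM, and to 0 counts in each Dux-KO library. The level summed over the cluster was therefore at least 185-fold lower in Dux-KO. The library with no Dux label stood at 14.31 CPM, between the Dux-Het libraries, and the 4 DMSO libraries of the separate Ythdc1 set ranged from 12.0 to 60.19 CPM, so that the lower Dux-Het library was just below their lowest. In bulk RNA, fewer cells of the two-cell-like state and less RNA per cell cannot be told apart.

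Zscan4c, annotated as protein-coding (ENSMUSG00000054272.6), had 2.11 and 2.69 CPM in Dux-Het and 0 and 0 in Dux-KO. It was at least 30.4-fold lower in Dux-KO (edgeR adjusted p = 0.00188). Zscan4f stood at 1.91 and 1.95 CPM in Dux-Het and at 0 in both Dux-KO libraries, at least 24.5-fold lower (edgeR adjusted p = 0.00188). Zscan4d was at 1.84 and 1.99 CPM against 0 and 0, at least 24.3-fold lower (edgeR adjusted p = 0.00188). These 3 and Zscan4-ps2, at least 22.8-fold lower, had the smallest adjusted p of the comparison, and no library of one genotype overlapped the other. Zscan4a (1.24 and 2.62 CPM in Dux-Het; annotated as a pseudogene), Zscan4b (0.981 and 2.22), Zscan4e (1.05 and 1.85) and Zscan4-ps3 (0.646 and 1.20) were likewise at 0 in both Dux-KO libraries, with bounds of at least 11.8-fold to 24.6-fold and edgeR adjusted p of 0.0139 to 0.0322. Zscan4-ps1, the least abundant copy at 0.383 and 0.834 CPM in Dux-Het, was also at 0 in Dux-KO but missed the threshold (edgeR adjusted p = 0.136). Reads from such copies can be assigned to one another, so the sum over the cluster is firmer than its division among genes.

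**Figure D1:**
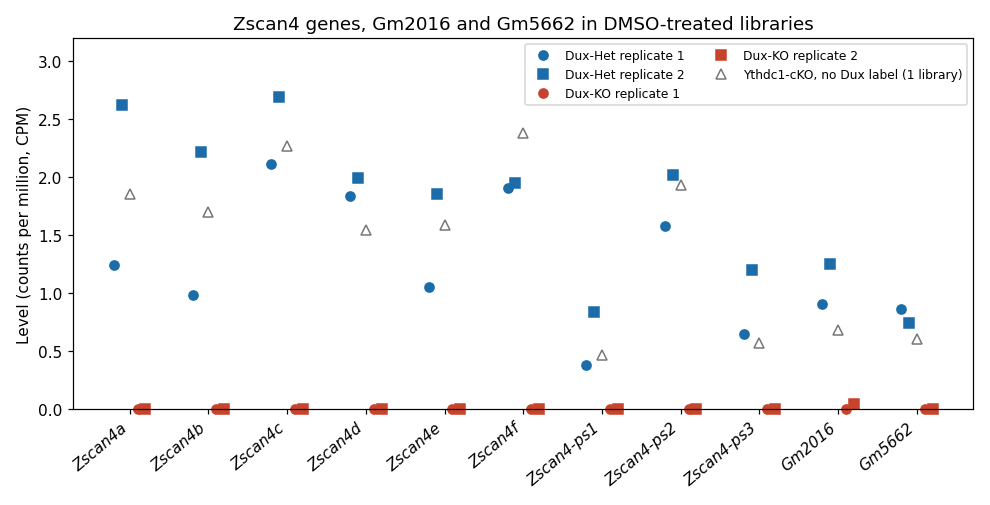
Levels in CPM (vertical axis) of the 9 Zscan4 genes, Gm2016 and Gm5662 (horizontal axis) in each DMSO library of the Dux set, 1 point per library. Every Dux-Het library and the library with no Dux label lay above 0 for all 11 genes, whereas the Dux-KO libraries were at 0 except for 2 counts of Gm2016 in replicate 2.

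Gm2016 stood at 0.909 and 1.25 CPM in Dux-Het and at 0 and 0.0425 CPM in Dux-KO, where replicate 2 held 2 counts, or 1 read pair. The ratio of Dux-Het to Dux-KO was 41.2 (95% exact conditional interval on read pairs 7.03 to 1660), and the edgeR adjusted p was 0.00919. The interval pools the read pairs of each genotype and covers counting error only, not the spread between libraries. Gm5662 had 0.862 and 0.741 CPM in Dux-Het and 0 in both Dux-KO libraries, at least 10.1-fold lower (edgeR adjusted p = 0.0322). With the 4 DMSO libraries alone, 7 of the 10 calls were shared, and Gm2016, Gm5662 and Zscan4-ps3 were lost. With all 22 libraries 6 were shared, and Zscan4a, Zscan4b, Zscan4e and Zscan4-ps3 were lost.

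The 10 calls rested on both Dux-KO libraries. A fit without 1 library leaves its group with a single sample, which is assumed to vary like the other groups. Without Dux-KO replicate 1 the count of calls was 4 (Zscan4c, Zscan4d, Zscan4f and Zscan4-ps2), and without replicate 2, the deeper library, it was 0, with 1938 features at an unadjusted p under 0.05. Each of those 4 genes then had an edgeR adjusted p of 0.0721, the smallest of the comparison, and was at 0 counts in the remaining Dux-KO library.

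The wider two-cell-like list held all 10 calls. The list was chosen with earlier results of these data known, so this is no independent result. It named 55 genes, of which 53 were in the table. Of the 53 genes, 40 had 0 counts in both Dux-KO libraries and 9 had 0 counts in both Dux-Het libraries. The list summed to 2938 counts in Dux-Het and 1060 in Dux-KO. A total of 43 members were tested, but only 24 passed the filter on low counts in the 4 DMSO libraries alone, and the others entered through further libraries of the fit. Of the 43, 36 fitted values were below 0 and 4 above, with a median of −5.27 on the log2 scale, or −2.28 with genes at 0 in Dux-KO set at their bound, beside −0.0178 over all features tested. Of the 24, 20 were below 0 and 4 above, with a median of −7.28, or −3.45 at the bound. The Dux-KO libraries lay below both Dux-Het libraries for 33 of the 43 and 19 of the 24, beside 11.9% of all features, and above both for 2 in each case, beside 12.3%. Since low genes pass the filter through the group in which they are higher, these tallies describe the members tested and do not stand as support for the calls.

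Several of these genes were low but detected in both Dux-Het libraries. Gm21761 was at 0.670 and 0.857 CPM in Dux-Het and at 0 in Dux-KO, at least 9.70-fold lower (edgeR adjusted p = 0.297). Tmem92, which encodes a transmembrane protein, was at 0.598 and 0.440 CPM against 0 and 0, at least 6.57-fold lower (edgeR adjusted p = 0.242). Usp17le, of the Usp17-like deubiquitinases, was at 0.766 and 0.649 CPM in Dux-Het and 0 and 0.0425 CPM in Dux-KO (edgeR adjusted p = 0.199). Usp17la stood at 0.287 and 0.278 CPM and Tcstv3, a 2-cell-stage transcript of the Tcstv family, at 0.383 and 0.232 CPM in Dux-Het, and both were at 0 in Dux-KO. None of these 5 passed the edgeR test. The genotypes did not overlap for any of them, beside 11.9% of all features lower without overlap. For genes at 0 in Dux-KO and detected in both Dux-Het libraries, that lack of overlap follows from the choice. DESeq2 called Tmem92 and Usp17le. Zfp352, a zinc finger gene of the 2-cell stage, had 3 counts and Tcstv1 had 2 counts over both Dux-Het libraries and 0 in Dux-KO, too few to compare.

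A second group of list members, picked by their counts in Dux-KO, did not share this pattern under DMSO. That follows in part from the choice. Of the 1060 counts the list kept in Dux-KO, 97.4% belonged to the 5 members with the most counts there, Zfp750, Eif4e3, Sp110, Obox6 and Arg2, which held 966 counts in Dux-Het and 1032 in Dux-KO. Zfp750, an epidermal transcription factor, was at 6.49 and 4.52 CPM in Dux-Het and at 6.49 and 6.41 CPM in Dux-KO. Eif4e3, a cap-binding protein of the eIF4E family, was at 4.93 and 3.34 CPM against 4.66 and 4.74 CPM. Neither passed the test, with log2 differences of 0.21 ± 0.26 (SE) and 0.16 ± 0.25 (SE). Under 4OHT, Sp110 was at 5.32 and 3.40 CPM in Dux-Het and 1.75 and 1.41 CPM in Dux-KO. Arg2 was at 3.08 and 2.11 CPM against 0.914 and 0.92 CPM there. Neither Sp110 nor Arg2 was called under 4OHT. Zfp750 and Eif4e3 had log2 differences of 0.27 and 0.20 under 4OHT. Obox6 had at most 4 counts in each Dux-Het and Dux-KO library under 4OHT.

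**Figure D2:**
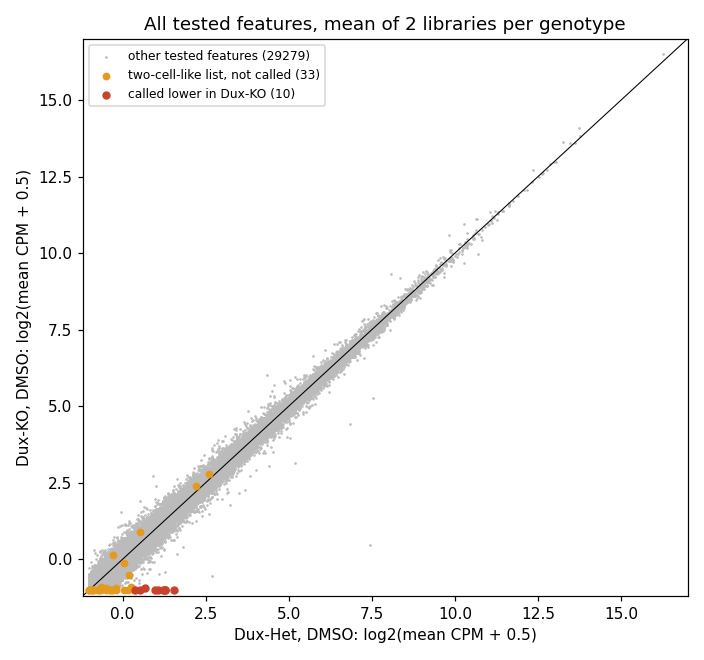
Mean level of each tested feature in Dux-Het (horizontal axis) and Dux-KO (vertical axis), as log2(mean CPM + 0.5) over 2 DMSO libraries each; the line marks equal levels. The 10 called genes lie on the floor of the plot at the low end of expression, with most of the 33 uncalled two-cell-like genes, while a few of the latter, Zfp750 and Eif4e3 among them, lie on the line.

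A search of the whole table for features at 0 in both Dux-KO libraries and with 20 or more counts in Dux-Het found 29, and the mirror search found 1. Of the 29, 18 were on the two-cell-like list, which was chosen with earlier results of these data known. Under DMSO, 9 were called, beside 0.0341% of all features, but the search chose them by those same values. Under 4OHT, 26 were called lower, beside 0.273% of all features. The 29 were grouped in the genome, with 24 lying within 1 Mb of another of them. The share of all features with such a neighbour was not computed. Reads of near-identical copies can be assigned to one another, so the 29 are not separate observations. Beside the 9 Zscan4 genes, 6 lay in the eIF1A-like cluster on chromosome 12 (87480108 to 88274500, mm10), with Gm18983, BB287469, Gm2022, Gm2075, Gm8332 and Gm5662 summing to 202 counts in Dux-Het. Smaller groups were Gm21761, AF067061 and Tcstv3 on chromosome 13, Gm12800 with Gm12794 on chromosome 4, and, on chromosome 7, Usp17la with Usp17lb and Gm16478 with Gm21037. The 3 that were not called under 4OHT were Gm5592, Tbx19 and Vmn1r88. Tbx19, a T-box factor, owed 22 of its 24 Dux-Het counts to replicate 2, and Gm5592 owed 23 of 25. The single mirror feature was Mbl2, a mannose-binding lectin of liver, with 9 and 16 counts in Dux-KO and 0 in Dux-Het (edgeR adjusted p = 0.682). The members of this search that are on none of the lists were named after their values were seen.

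MERVL-int and MT2_Mm, 2 of 8 MERVL-related families, were lower in both Dux-KO than in both Dux-Het libraries under DMSO. So were 11.9% of all features, and neither family passed the test. MERVL-int, the internal part of the retrovirus, was at 317 and 348 CPM in Dux-Het and 240 and 302 CPM in Dux-KO. The Dux-KO libraries were lower without overlap, by 0.32 ± 0.16 (SE) on the log2 scale (edgeR adjusted p = 1). MT2_Mm, its long terminal repeat and promoter, was at 149 and 170 CPM against 119 and 146 CPM, lower by 0.30 ± 0.15 (SE; edgeR adjusted p = 1). The 6 related families, MERVL_2A-int, MT2A, MT2B, MT2B1, MT2B2 and MT2C_Mm, differed by −0.18 to −0.10, and the genotypes overlapped in each. All 8 values were below 0 and 0 of 8 were called, with 0 at an unadjusted p under 0.05 and 0 by DESeq2. Their median of −0.134 stood beside −0.133 over the 1047 repeat families tested, of which 893 were below 0. Repeats took 18.48% and 20.95% of counts in Dux-Het and 16.39% and 20.78% in Dux-KO, and mitochondrially encoded genes took 0.695% and 0.827% against 0.324% and 1.11%, so that the shallower Dux-KO library was lowest in both; the part of this in the repeat values was not tested.

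The targeted gene could not serve as a check of genotype at this level. Duxf3, the Dux gene of the annotation (chromosome 10, 58229979 to 58232675), had 6 and 3 counts in Dux-Het and 2 and 4 in Dux-KO, or 0.144 and 0.0695 CPM against 0.0691 and 0.0849 CPM. The genotypes overlapped. Under 4OHT, Duxf3 was at 1.54 and 0.927 CPM in Dux-Het and at 0.0199 and 0.0902 CPM in Dux-KO, lower by 4.39 ± 0.67 (SE) on the log2 scale (edgeR adjusted p = 0.019). The table gives no view of which part of the gene was removed. Ythdc1 was at 58.9 and 86.5 CPM in Dux-Het and 49.7 and 71.3 CPM in Dux-KO, and Mettl3, the m6A methyltransferase, at 31.3 and 36.7 CPM against 32.8 and 33.3 CPM; neither passed the test.

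Genes around Dux gave 0 calls. Of 33 annotated genes within 1 Mb, 29 were in the table and 18 were tested, and 2 had an unadjusted p under 0.05. Smpdl3a, a phosphodiesterase of the sphingomyelinase family, was at 0.598 and 0.371 CPM in Dux-Het and at 0.967 and 1.02 CPM in Dux-KO (log2 1.01 ± 0.46 SE; edgeR adjusted p = 1). Gm6494, a processed pseudogene, had 7 and 18 counts in Dux-Het and 2 and 0 in Dux-KO (edgeR adjusted p = 1) and was called lower under 4OHT (edgeR adjusted p = 0.0111). The more abundant neighbour Ranbp2, a nucleoporin, was at 255 and 339 CPM in Dux-Het and 223 and 294 CPM in Dux-KO.

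Regulators of Dux and the pluripotency network were not called. Of 32 regulators 0 passed the test, with a median of −0.104 and 1 at an unadjusted p under 0.05. That gene was Dppa2, which with Dppa4 activates Dux in embryonic stem cells: it stood at 26.2 and 38.0 CPM in Dux-Het and at 17.4 and 24.5 CPM in Dux-KO, lower by 0.64 ± 0.21 (SE; edgeR adjusted p = 1), without overlap. Dppa4 was at 60.1 and 83.6 CPM against 68.2 and 62.3 CPM, and Trim28, the KAP1 corepressor, at 1270 and 1190 CPM against 1460 and 1020 CPM. Of 28 pluripotency genes 0 were called, with a median of −0.0525. Pou5f1 (Oct4) was at 394 and 442 CPM in Dux-Het and 515 and 306 CPM in Dux-KO, with both Dux-Het libraries between the Dux-KO ones. Sox2, Nanog, Zfp42 and Esrrb had log2 differences from −0.15 to 0.09 with SE of 0.14 to 0.21.

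The remaining lists, the set of all repeat families aside, held 0 calls by edgeR and 0 by DESeq2, but several had values on one side. Interferon-stimulated genes had a median of 0.548 (16 of 19 above 0), trophectoderm genes of 0.504 (13 of 16 above 0) and fibroblast and feeder genes of 0.46 (10 of 12 above 0). In each, Dux-Het replicate 2 was the low library: the trophectoderm list summed to 228.5 and 116.1 CPM in Dux-Het and 267.3 and 217.9 CPM in Dux-KO, and the interferon list to 242.8 and 153.1 against 261.5 and 235.9 CPM. Krt19, a keratin of simple epithelia, was at 50.9 and 14.3 CPM in Dux-Het and 59.6 and 54.5 CPM in Dux-KO. Col1a1, the fibrillar collagen of fibroblasts, was at 31.9 and 8.34 CPM against 38.6 and 24.7 CPM. The 8 fibroblast markers summed to 59.33 and 16.64 CPM in Dux-Het and 67.0 and 50.22 CPM in Dux-KO, with Lum, a proteoglycan of connective tissue, at 0 in all 4 libraries, and their part in these values was not tested. The neural list summed to 263.5 and 244.3 CPM in Dux-Het and 271.1 and 259.3 CPM in Dux-KO, and its 6 cell type markers to 80.58 to 81.96 CPM in the 4 libraries. Single members differed from this. Of the 14 neural genes tested, 3 were lower and 0 higher at an edgeR unadjusted p under 0.05. The list had 2 genes with counts in Dux-Het and 0 in both Dux-KO libraries. The marker Dcx was at 0 in both Dux-KO libraries. Pax6, the eye and forebrain regulator, was at 4.91 and 12.3 CPM in Dux-Het and 3.59 and 4.61 CPM in Dux-KO (edgeR adjusted p = 1), and Sox1 at 0.909 and 5.14 CPM against 1.04 and 0.595 CPM.

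Imprinted genes (40 tested) and Y-linked genes (8 tested) had 0 calls. H19, the maternally expressed RNA beside Igf2, was at 218 and 88.9 CPM in Dux-Het and 235 and 229 CPM in Dux-KO, and Igf2, its paternally expressed neighbour, at 2.7 and 5.98 CPM against 2.56 and 2.72 CPM. For both genes Dux-Het replicate 2 stood apart from the other 3 libraries. Kdm5d, a Y-linked demethylase, was at 1.39 and 0.232 CPM in Dux-Het and 1.55 and 2.00 CPM in Dux-KO. Uba1y, also Y-linked, was at 7.13 and 1.74 CPM against 7.43 and 6.67 CPM. Dux-Het replicate 2 was low for both genes under 4OHT too, with Kdm5d at 1.63 and 0.386 CPM and Uba1y at 5.53 and 1.14 CPM in Dux-Het. By contrast, Eif2s3y and Ddx3y, on the same chromosome, differed under DMSO by −0.01 ± 0.22 (SE) and 0.14 ± 0.19 (SE).

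**Figure D3:**
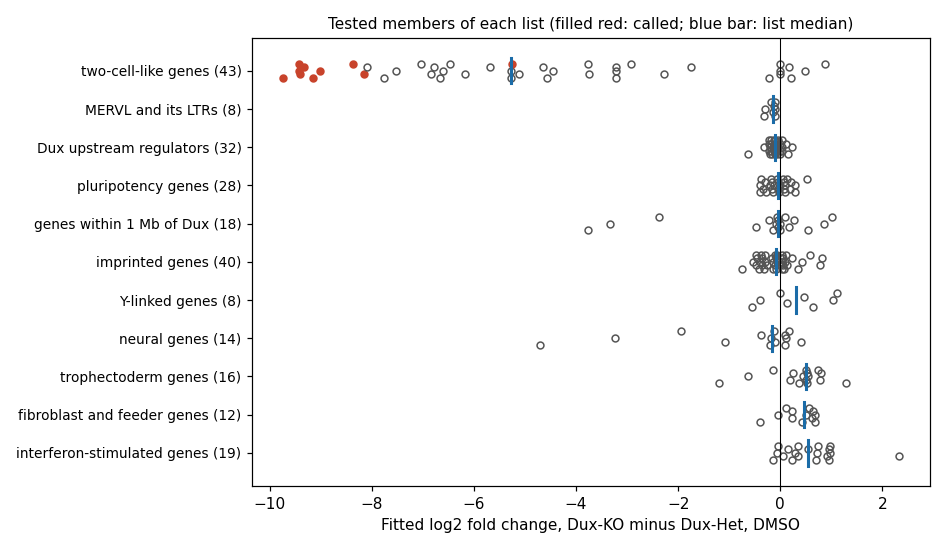
Fitted log2 fold change of Dux-KO over Dux-Het under DMSO (horizontal axis) for each tested member of 11 lists, with the number tested in brackets; filled points are the 10 calls and bars are list medians. Calls lie in the two-cell-like list alone, which was chosen with earlier results of these data known and has a median of −5.27. A fitted value of a gene at 0 in Dux-KO depends on the prior count and is no measure of size.

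In the contrast of the genotypes under DMSO, chromosome 11 stood apart from the other chromosomes, and did so through 1 Dux-Het library. The median log2 fold change of its 1405 expressed genes was 0.187, with 85.6% above 0, whereas the medians of the other autosomes and the X lay between −0.0825 and 0.00442. No gene of it was called. Against the library with no Dux label of the same treatment, chromosome 11 had a median of −0.337 in Dux-Het replicate 2 under DMSO and 0.110, 0.123 and 0.0609 in Dux-Het replicate 1 and Dux-KO replicates 1 and 2. Dux-Het replicate 2 under 4OHT, a separate library, gave −0.262, and all 13 windows of 10 Mb were below 0 in both. The highest other autosome or X stood at 0.0653, 0.0796 and 0.0813 in Dux-Het replicate 1 and Dux-KO replicates 1 and 2 under DMSO. Chromosome 11 was thus above it in Dux-Het replicate 1 and Dux-KO replicate 1, relative to that reference library. Without Dux-Het replicate 2 the median of chromosome 11 was −0.0306. The 10 calls were among the 15 features called without that library, under the same assumption on the spread, and were all called also when genes of chromosome 11 were left out of the fit. The cause was not tested.

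**Figure D4:**
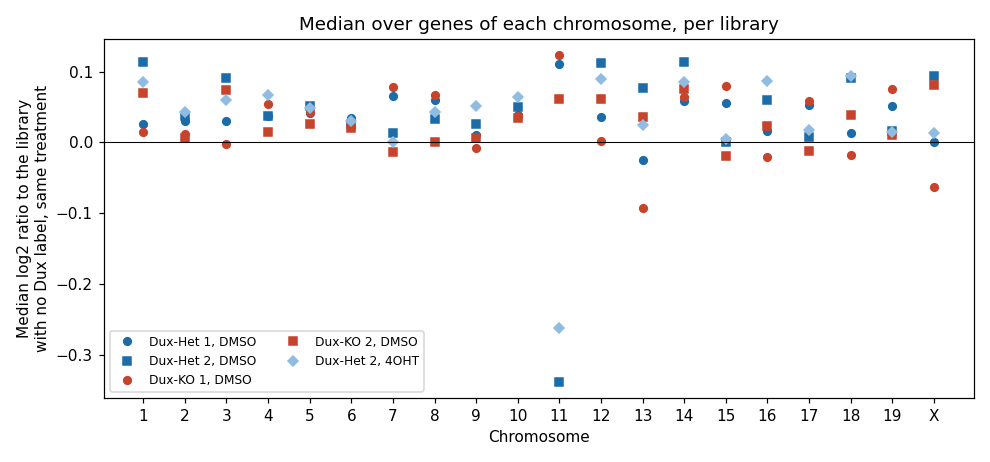
Median log2 ratio of each library to the library with no Dux label of the same treatment (vertical axis), over expressed genes of each chromosome (horizontal axis). Dux-Het replicate 2 lies at −0.337 under DMSO and −0.262 under 4OHT on chromosome 11, and the other 3 DMSO libraries lie above 0 there.

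The same contrast under 4OHT came from 4 other libraries in the same fit, whose Dux-Het replicate 2 had the low chromosome 11 of its DMSO namesake, so that the contrasts share no library but may share their source cultures. It gave 80 features lower in Dux-KO (0.273%) and 1 higher, Gm7389 (0.00341%). All 10 genes called under DMSO were among the 80, which is 100% of the DMSO calls and 12.3% of the 81 calls under 4OHT. Of those 81, 78 had the same sign under DMSO, beside 15448 of all 29322 features with values below 0 there. A total of 65 were lower without overlap, beside 11.9% of all features. An edgeR unadjusted p under 0.05 was reached by 55, beside 1.54% lower and 1.04% higher of all features. However, 44 of the 81 had 0 counts in both Dux-KO libraries under DMSO. For such genes the sign rests on the Dux-Het counts, which were as low as 1. The Zscan4 sum was 129.0 and 119.6 CPM in Dux-Het and 0.0398 and 0.0361 CPM, 2 counts each, in Dux-KO under 4OHT. MERVL-int was at 1050 and 864 CPM in Dux-Het and 331 and 326 CPM in Dux-KO, lower by 1.55 on the log2 scale (edgeR adjusted p = 0.00119). Of the tested two-cell-like genes, 17 were called under 4OHT and not under DMSO. A test of the difference between the treatments called 0 features by edgeR (0%), with 481 at an unadjusted p under 0.05, and 2 by DESeq2; genes at 0 in Dux-KO under both treatments give no usable ratio for it.

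A further 3 features had wide gaps between the genotypes under DMSO without being called by edgeR in the 10-library fit. In each of them the Dux-KO libraries lay far apart under 4OHT. Rprl2 and ERVB4_1B-I_MM-int were singled out after their values were seen. MMVL30-int, a VL30 retroelement family, was at 221 and 147 CPM in Dux-Het and at 34.7 and 41.8 CPM in Dux-KO under DMSO (log2 −2.29 ± 0.42 SE; edgeR adjusted p = 0.265). ERVB4_1B-I_MM-int, an endogenous retrovirus, was at 133 and 97.7 CPM against 17 and 24.4 CPM (log2 −2.50 ± 0.42 SE; edgeR adjusted p = 0.199). Rprl2, annotated as a ribozyme gene on chromosome 3 (22251374 to 22251663, mm10), was at 221 and 126 CPM against less than 1 CPM, 24 and 45 counts, in Dux-KO (edgeR adjusted p = 0.832). Under 4OHT, Dux-KO replicate 1 was low and replicate 2 high in all 3. Rprl2 was at 0.656 and 141 CPM in Dux-KO and overlapped Dux-Het, at 189 and 127 CPM. MMVL30-int was at 46.2 and 152 CPM in Dux-KO against 183 and 156 CPM in Dux-Het. ERVB4_1B-I_MM-int was at 34.0 and 107 CPM against 129 and 110 CPM. MMVL30-int and ERVB4_1B-I_MM-int were thus lower in both Dux-KO libraries without overlap, replicate 2 by a small margin. With the 4 DMSO libraries alone, where the spread under 4OHT does not enter, all 3 were called among 10 features, 7 of them Zscan4 genes, and all 3 were also called without either Dux-KO 4OHT library. DESeq2 called Rprl2 and ERVB4_1B-I_MM-int, and the fit of all 22 libraries and that with the replicate number as a block called ERVB4_1B-I_MM-int. Other families with unadjusted p under 0.05 included L1Md_A, a young LINE-1 family, at 867 and 1590 CPM in Dux-Het and 756 and 887 CPM in Dux-KO (edgeR adjusted p = 1), again with Dux-Het replicate 2 apart.

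**Figure D5:**
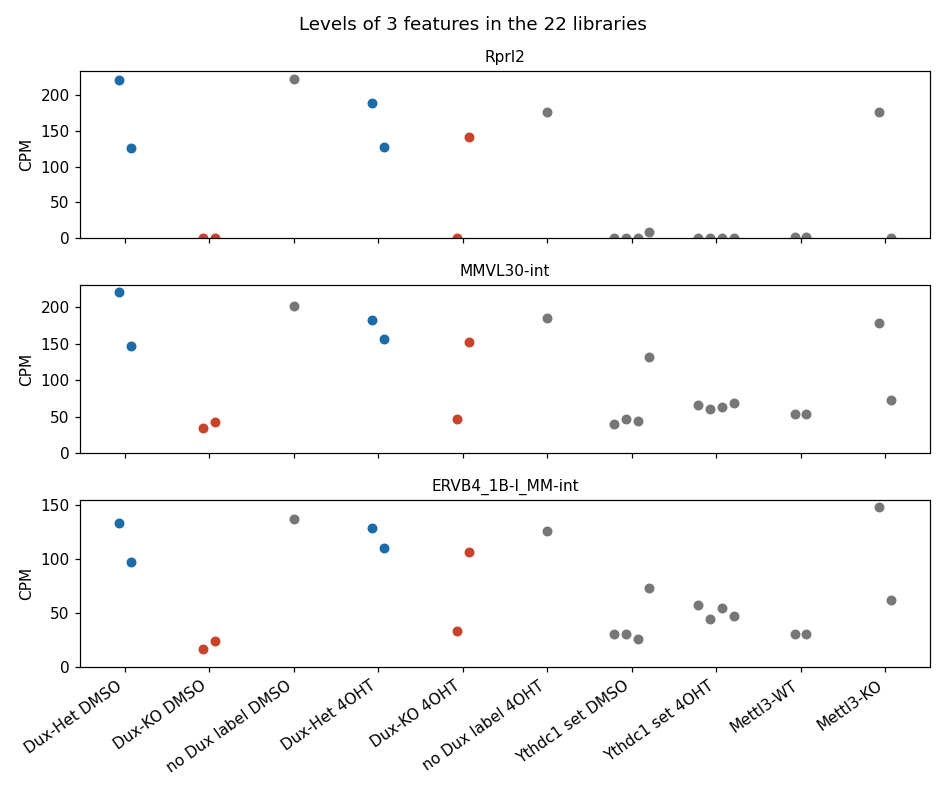
Levels in CPM (vertical axes) of Rprl2, MMVL30-int and ERVB4_1B-I_MM-int in all 22 libraries by group (horizontal axis), 1 point per library. Both Dux-KO libraries under DMSO are low, with 24 and 45 counts of Rprl2, but Dux-KO replicate 2 under 4OHT, at 141 CPM, lies among the Dux-Het libraries.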

How the data were processed

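Raw counts per gene and repeat family were deposited by the authors as 1 table of 22 libraries. Among tools, bcl2fastq, STAR 2.7, Bowtie2 and RSEM appear in the submitters' processing notes with the build mm10, without roles; no source used here gives the strand setting or how reads of near-identical copies were shared. In the authors' second deposited table, the signal values are the counts divided by 1 factor per library, and these factors served as an alternative. The 10 libraries of the Dux set were fitted as 6 group means in edgeR 4.0.16 (TMM, filterByExpr, quasi-likelihood F test, Benjamini-Hochberg over 29322 features, threshold 0.05, 4 residual and 7.15 prior degrees of freedom). The test was checked on simulated data with changes placed only in well-counted features, which does not cover genes at 0 in one genotype. Levels used 1 TMM scaling over all libraries. Chromosome medians used genes with a mean of at least 1 CPM and a pseudocount of 0.5 CPM. Coordinates are GENCODE M21 (mm10); promoters are RefSeq, GRCm38.p6. Replicates of a group differed beyond sampling noise, with chi-square per degree of freedom of 46.41 and 99.07 for Dux-Het and Dux-KO under DMSO. The text could name Dux, Ythdc1, Mettl3, the 15 largest calls in each direction, any member of the two-cell-like, MERVL, regulator, pluripotency, imprinted and Y-linked lists, up to 6 members of other lists and up to 10 genes around Dux or repeat families by size of fold change; others are said to be named after their values were seen. The members and lists were chosen with earlier results of these data known. Alternatives were DESeq2 1.42.0, other scalings and filters, gene entries alone, fewer or more libraries, a replicate block and each library left out. Libraries outside the Dux set entered the TMM scaling of levels, the fit of all 22 libraries and the results flagged below. Otherwise they served as reference levels.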

Additional observations from a re-analysis of the deposited data

Results flagged for a closer look

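Among the 10 library measures compared in each group of 4 (20 sets of values), 3 values stood apart from their group. All were in the fourth DMSO library of the Ythdc1 set: Rprl2 at 9.02 CPM, MMVL30-int at 132 CPM and ERVB4_1B-I_MM-int at 73.0 CPM. These features were taken as measures for their pattern between libraries, so a chance rate of about 1 in 20 does not apply to them. The other 3 libraries of that group had at most 0.378, 46.4 and 31.1 CPM. The same 3 features were lower in both Dux-KO than in both Dux-Het libraries under DMSO, without passing the edgeR test in the 10-library fit. RLTR13A1, a repeat family outside these measures, was at 71.4 CPM in the third DMSO library of the Ythdc1 set and at most 12.6 CPM in the others. It was named after its values were seen.

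The Mettl3 libraries lie outside the Dux set, and their difference was not tested here. Both Mettl3-KO libraries were above both Mettl3-WT libraries for the Zscan4 sum, at 212.7 and 234.8 CPM against 2.821 and 2.239 CPM. MMVL30-int was at 179 and 72.9 CPM in Mettl3-KO against 52.8 and 52.9 CPM in Mettl3-WT. ERVB4_1B-I_MM-int was at 148 and 62.5 CPM against 30.6 and 30.8 CPM. Rprl2 was at 177 and 0.664 CPM in the Mettl3-KO libraries and at 1.85 and 2.34 CPM in Mettl3-WT, so the knockout libraries fell on either side.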

How the results depend on the processing

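The DMSO comparison called 10 features. It called 17 with DESeq2, 124 (87 lower, 37 higher) with no filter on low counts, 6 with at least 50 counts in every library of a group, and 0 to 15 when single libraries were left out; the other settings gave 9 to 12, with 7 of the 10 calls shared in the 4 DMSO libraries alone and 6 in all 22 libraries. A left-out library leaves 1 sample in its group, assumed to vary like the other groups. Under 4OHT, 81 calls became 272 with no filter, 36 over features that pass the filter in the 4 DMSO libraries (chosen after seeing the data), and 30 to 97 with single libraries left out, the lowest without Dux-KO 4OHT replicate 1 (30) and replicate 2 (32). The interaction called 0, but 2 with DESeq2, 28 with no filter, and 0 to 1 with single libraries left out. Genes around Dux gave 0 calls, and 1 with no filter. The chromosome 11 median of 0.187 ranged from −0.0306 without Dux-Het replicate 2 to 0.468 without Dux-Het replicate 1. The causes of these shifts were not tested. Low counts limit the single genes: most two-cell-like genes had under 1 CPM in Dux-Het. With the replicate number as a block over the 8 Dux libraries, 12 features were called under DMSO, 94 under 4OHT and 0 in the interaction. The deviations of same-numbered libraries correlated at 0.308 between Dux-Het and Dux-KO under DMSO, at 0.535 between the treatments in Dux-Het (0.494 without chromosome 11), at 0.225 between the treatments in Dux-KO and at −0.173 between the genotypes under 4OHT. No label says what the number marks.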
